A study of Mus musculus with 4 samples.

Results

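The sarcomeres of a skeletal muscle fibre are joined end to end at the Z-disc, and 10 mouse genes for proteins of that structure or for sensors of stretch beside it are described here. They were chosen by their GENCODE symbols out of 55401 genes in the count files: the alpha-actinins Actn2 and Actn3, the calsarcins Myoz1, Myoz2 and Myoz3, the LIM proteins Csrp3 and Fhl1, the ankyrin repeat proteins Ankrd1 and Ankrd2, and Xirp1. All 10 symbols were found. The list was drawn up with earlier results of the same comparison known, so the differences below describe the genes and were not used as evidence about them.

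Poly(A) RNA of semimembranosus, one of the hamstrings, was sequenced from 8-week-old C57BL/6 mice. In every mouse the left external iliac vein had been tied over a 30-gauge needle, which narrowed it. The IVS_diosmin group (2 libraries) received diosmin, a citrus flavonoid prescribed for chronic venous disease, by gavage in a daily dose of 40 mg per kg, and the IVS group (2 libraries) was given saline by the same route. No library came from a muscle without the stenosis, and the labels do not say whether the replicates were separate animals, so the spread between replicates may be partly technical.

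Alpha-actinin crosslinks the actin filaments of neighbouring sarcomeres, and calsarcins bind both alpha-actinin and the phosphatase calcineurin, which drives NFAT factors and the slow fibre programme. Mouse fibres differ in which of these proteins they hold: Actn3, Myoz1 and Myoz3 are known from fast fibres, Myoz2, Csrp3 and Ankrd2 mainly from slow fibres (Myoz2 and Csrp3 also from heart), and Actn2 from all fibres. The ankyrin repeat proteins bind titin in the I-band and are known for induction by stretch, and Ankrd1 is abundant in heart and scarce in resting skeletal muscle.

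Total gene counts were 13897740 and 14539304 in the IVS_diosmin libraries and 15324354 and 13056650 in the IVS libraries. Defining skeletal muscle genes (9, among them Acta1, Ckm and Myh4) were summed as CPM (counts scaled to library size, with TMM factors). The sums were 82301 and 86607 CPM with diosmin and 76340 and 86047 CPM in IVS, so all 4 libraries held skeletal muscle. These genes do not tell semimembranosus from other muscles, and which muscle or part of it was sampled was not tested. Slow fibre markers stood apart. The 10 genes of that list, Myh7 (slow myosin heavy chain) and the slow troponins among them, summed to 3820 and 1543 CPM in IVS_diosmin replicates 1 and 2, against 84.7 and 98.2 CPM in IVS replicates 1 and 2, and 9 of 10 passed the threshold. The 11 fast fibre markers summed to 103491 and 104236 CPM with diosmin against 123512 and 135282 CPM in IVS. Of these, Myh1 rose (log2 1.17), Tnnc2 and Casq1 fell (log2 -0.93 and -0.92), and the other 8 did not pass. Endothelial markers moved the other way, with sums of 188 and 180 CPM in IVS_diosmin against 397 and 383 CPM in IVS, and 5 of 8 passed as lower. CT010467.1, an rRNA-like locus, took 1.16% and 0.936% of gene counts with diosmin and 4.14% and 3.80% in IVS, and the noncoding RNA Rn7sk was at 11.9 and 5.97 CPM with diosmin against 34.6 and 33.5 CPM in IVS. In bulk muscle, a change in how many fibres of a type were sampled and a change in RNA per fibre cannot be told apart.

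The promoters of 3 of the genes are shown because Myoz2 and Csrp3 rose, and because Actn2 is the alpha-actinin that slow fibres rely on. Fhl1 rose too, and its windows were searched but are not printed. Promoter windows from RefSeq (GRCm38.p6) were matched to 6 of the 10 genes (8 windows), and the 250 bases before the RefSeq start are printed 5′ to 3′ on the strand of the gene. In capitals stand exact matches to 4 muscle motifs searched on both strands. They were the E-box CAGCTG, the M-CAT element CATTCC (bound by TEAD factors), the MEF2 site YTAWWWWTAR and the CArG box CCWWWWWWGG (bound by SRF). Here W is A or T, Y is C or T and R is A or G.
Myoz2, chr3:123034988-123035237, minus strand: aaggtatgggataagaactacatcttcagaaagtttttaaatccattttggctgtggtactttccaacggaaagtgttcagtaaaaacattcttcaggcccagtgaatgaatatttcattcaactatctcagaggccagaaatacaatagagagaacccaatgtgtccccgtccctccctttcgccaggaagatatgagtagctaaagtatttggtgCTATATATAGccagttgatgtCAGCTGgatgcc
Csrp3, chr7:48848052-48848301, minus strand: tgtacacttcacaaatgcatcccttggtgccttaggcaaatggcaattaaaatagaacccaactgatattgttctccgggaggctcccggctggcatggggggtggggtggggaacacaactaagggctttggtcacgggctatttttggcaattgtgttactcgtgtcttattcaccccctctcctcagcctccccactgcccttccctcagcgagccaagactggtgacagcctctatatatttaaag
Actn2, chr13:12340733-12340982, minus strand: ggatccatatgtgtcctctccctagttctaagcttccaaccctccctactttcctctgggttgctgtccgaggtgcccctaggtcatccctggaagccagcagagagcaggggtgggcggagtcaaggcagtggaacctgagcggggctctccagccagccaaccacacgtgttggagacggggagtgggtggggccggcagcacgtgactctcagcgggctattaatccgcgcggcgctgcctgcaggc
The Myoz2 window held a MEF2 match 33 to 24 bases before the start and an E-box 12 to 7 bases before it, which do not overlap. A match is to the pattern only, and binding of a factor there was not tested. The last 28 bases of that window lie inside the GENCODE exon of Myoz2, so the E-box is within the exon as annotated there and the MEF2 match straddles its edge. Of all 32851 promoter windows of that length, 2.92% held a MEF2 match and 13% the E-box. The Csrp3 and Actn2 windows shown held no exact match to the 4 patterns. Other forms of these motifs were not searched. Among the windows not shown, that of Ankrd1, all 250 bases of it GENCODE exon, held 2 M-CAT elements (in 12.6% of all windows). A CArG box (in 1.47%) was in 1 of the 2 Fhl1 windows, which has 87 bases in a GENCODE exon. The second Csrp3 window, the other Fhl1 window and that of Ankrd2 held no match. The counts are per gene and do not tell which start was used.

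Of the 10 genes, 9 had enough counts to be tested and had at least 54 counts in every library. With diosmin Myoz2, Csrp3 and Fhl1 rose and none fell, at an adjusted p under 0.05 over all genes (edgeR quasi-likelihood test). Over the transcriptome, 400 of 13533 genes (2.96%) passed that threshold, 159 higher (1.17%) and 241 lower (1.78%). With libraries scaled by their totals alone, 115 passed as higher and 337 as lower. Values of all 9 were higher on average with diosmin, and in 7 both diosmin libraries lay above both IVS libraries, as they did in 23.4% of all tested genes. Because this comparison was known when the genes were chosen, nothing is read from these counts. Exons of none of the 10 genes overlapped those of another gene in GENCODE M21. The strand setting of the counting is not known, and its effect on these counts was not tested.

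**Figure D1:**
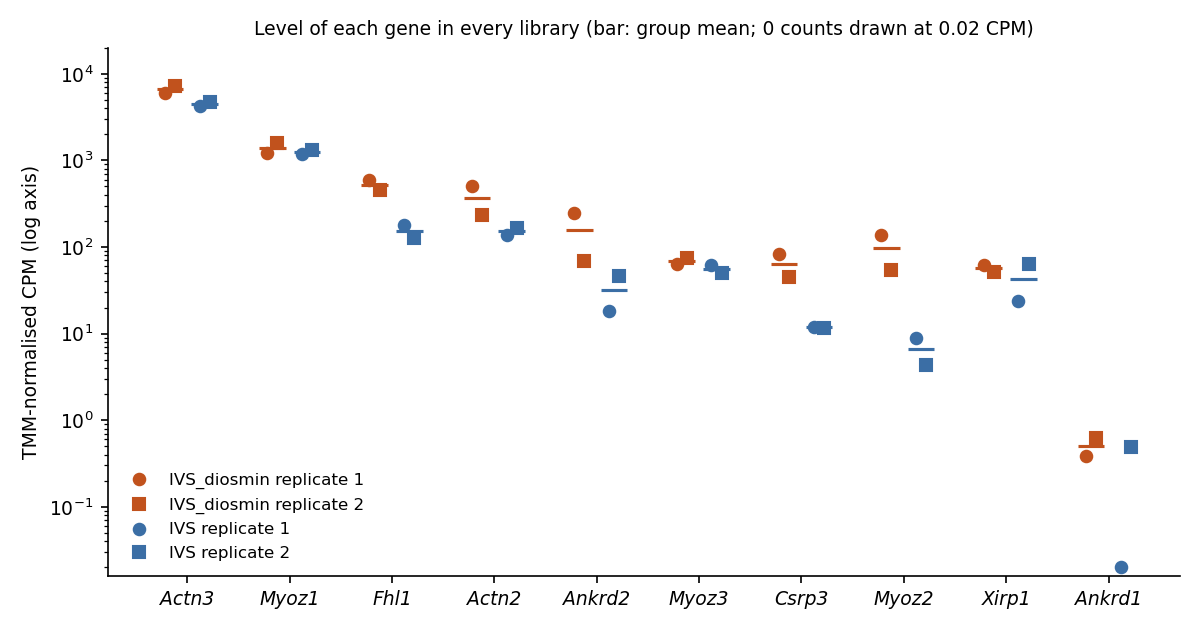
Level of each of the 10 genes in every library, as TMM-normalised CPM on a log axis. IVS_diosmin libraries (orange) stand left of IVS libraries (blue). A bar marks each group mean, except that of Ankrd1 in IVS, where 1 library had 0 counts. Circles are replicate 1 and squares replicate 2. Fhl1, Csrp3 and Myoz2 have both diosmin libraries far above both IVS libraries, while Myoz1 and Xirp1 overlap and Ankrd1 lies below 1 CPM throughout, with its library of 0 counts drawn at the foot of the axis.

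The calsarcins differed by isoform. Myoz2, the slow fibre and heart calsarcin (ENSMUSG00000028116, mm10 chromosome 3, 123006206 to 123035015), had 138 and 53.9 CPM in IVS_diosmin replicates 1 and 2, against 8.92 and 4.39 CPM in IVS replicates 1 and 2. Both diosmin libraries lay above both IVS libraries, and within each group replicate 1 was more than double replicate 2. The log2 fold change was 3.83 ± 0.61 (SE, n = 2 per group), from 1793 and 777 counts with diosmin and 156 and 54 in IVS. It ran from 3.00 to 4.44 when single libraries were left out. The call was lost without IVS replicate 2 (log2 3.42), and also with limma-voom and with a stricter filter on low counts.

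Myoz1, the main calsarcin of fast fibres (chromosome 14, 20649107 to 20656540), was at 1215 and 1589 CPM with diosmin and at 1179 and 1304 CPM in IVS. The groups overlapped, and the log2 fold change was 0.18 ± 0.21. Myoz3, another fast fibre calsarcin (chromosome 18, 60573750 to 60591788), had 64.5 and 74.0 CPM against 61.7 and 50.1 CPM, a log2 fold change of 0.31 ± 0.21 that did not pass. Its diosmin libraries lay just above its IVS libraries, by less than the spread within either group.

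Set against each other per kilobase of exon, the calsarcins were Myoz1 almost throughout. Myoz2 made up 5.76% and 1.80% of the summed calsarcin level in the diosmin libraries, and 0.405% and 0.182% in the IVS libraries. The mean share was 3.78% ± 2.80 with diosmin and 0.293% ± 0.158 in IVS (SD, n = 2 each). Myoz1 held 91.6% and 95.7% with diosmin and 96.8% and 97.8% in IVS. Myoz3 kept a like share everywhere, 2.67% and 2.46% against 2.79% and 2.07%. So the diosmin libraries had a larger Myoz2 share beside a Myoz1 level that did not pass the test in either direction.

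Among the alpha-actinins, Actn3 of fast fibres (chromosome 19, 4861216 to 4877909) was the most abundant of the 10 genes, at 6084 and 7263 CPM with diosmin against 4271 and 4751 CPM in IVS. Both diosmin libraries were higher, and the log2 fold change of 0.56 ± 0.21 did not pass. Actn2, present in all fibres (chromosome 13, 12269426 to 12340760), had 502 and 237 CPM with diosmin against 139 and 166 CPM in IVS. Diosmin replicate 1 stood well above the other libraries, at 2.12 times replicate 2. The log2 fold change of Actn2 was 1.28 ± 0.32 and did not pass. It did pass without diosmin replicate 2 (log2 1.71), and also with DESeq2, with no filter on low counts and with scaling by library totals, while it was 0.64 without diosmin replicate 1.

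Per kilobase, Actn2 made up 5.93% and 2.43% of the Actn2 and Actn3 level in IVS_diosmin replicates 1 and 2, and 2.43% and 2.60% in IVS replicates 1 and 2. Only diosmin replicate 1 was high, and replicate 2 lay within the IVS range. The difference in mean share was 1.67 percentage points, and it turned to -0.0794 without diosmin replicate 1. For Actn2, the balance of isoforms thus rests on 1 library, in contrast to the Myoz2 share, where each diosmin library exceeded each IVS library.

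**Figure D2:**
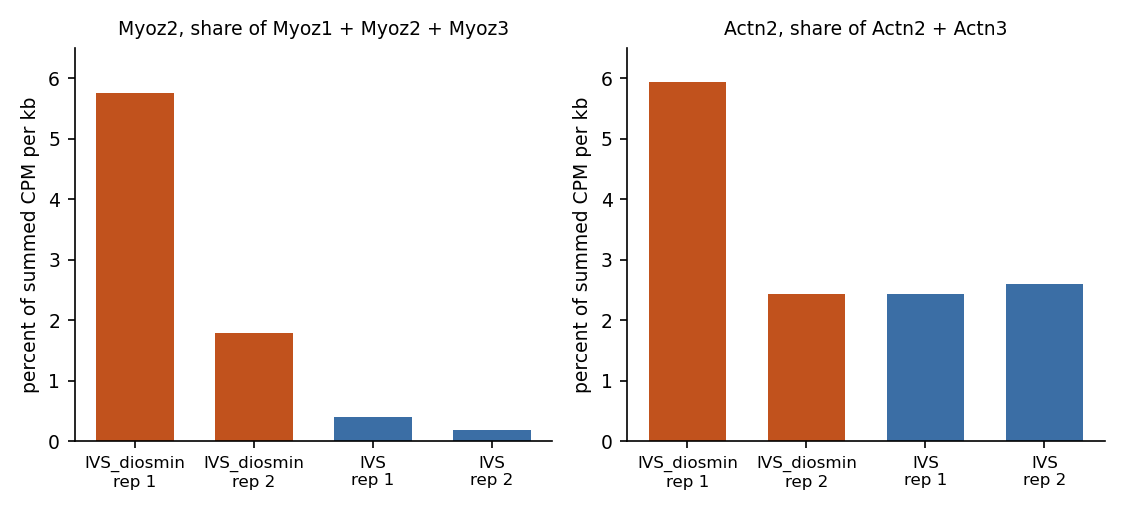
Share of Myoz2 in the summed calsarcin level (left) and of Actn2 in the summed Actn2 and Actn3 level (right), in percent of CPM per kilobase of exon, 1 bar per library with IVS_diosmin (orange) left of IVS (blue). Myoz2 stands at 5.76% and 1.80% with diosmin against 0.405% and 0.182% in IVS, while for Actn2 only diosmin replicate 1, at 5.93%, leaves the range of 2.43% to 2.60%.

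Both LIM proteins rose. Csrp3, the muscle LIM protein, which binds alpha-actinin at the Z-disc (ENSMUSG00000030470, chromosome 7, 48830398 to 48848033), had 83.8 and 44.9 CPM with diosmin against 11.9 and 11.6 CPM in IVS. The IVS libraries were nearly equal, and each diosmin library was more than 3 times as high. The log2 fold change was 2.45 ± 0.29, from 1.93 to 2.81 with single libraries left out, and Csrp3 passed in every one of those 4 fits. Heart markers, 9 genes, summed to 461 and 408 CPM with diosmin against 185 and 241 CPM in IVS. Most of each sum was Actc1, which skeletal muscle also expresses, at 434 and 394 CPM against 177 and 226 CPM. Of the 6 tested, Actc1 rose, and Myh6 and Tnni3 had both diosmin libraries above both IVS libraries, Tnni3 at 25 counts or fewer. Nppa, Tnnt2 and Myl4 overlapped between groups, with log2 fold changes of -0.76, 0.68 and -0.24. Nppb and Myl7 had 0 counts throughout. The part of heart markers in the levels of Csrp3 and Myoz2 was not tested.

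Fhl1, a LIM-only protein of the sarcomere (ENSMUSG00000023092, chromosome X, 56731787 to 56793346), had 594 and 451 CPM with diosmin against 179 and 125 CPM in IVS. The lowest diosmin library was above the highest IVS library by more than the spread within either group. The log2 fold change was 1.78 ± 0.24, from 1.54 to 2.06 with single libraries left out. The call was lost without diosmin replicate 1 (log2 1.57). Fhl1 was the most even of the 3 between the diosmin libraries, with replicate 1 at 1.32 times replicate 2, compared with 1.87 times for Csrp3 and 2.56 times for Myoz2.

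The ankyrin repeat proteins were uneven or scarce. Ankrd2, a stretch-responsive titin-binding protein (chromosome 19, 42036000 to 42045110), had 249 and 69.4 CPM with diosmin against 18.1 and 45.7 CPM in IVS. The diosmin libraries were both higher, but replicates differed by 3.58 times within the diosmin group, and IVS replicate 1 was at 0.396 times replicate 2. The log2 fold change of 2.33 ± 0.93 had the largest standard error of the 9 genes and did not pass, and it ran from 1.13 to 3.13 with single libraries left out. Ankrd1, its relative that heart muscle holds in large amounts (chromosome 19, 36111961 to 36120099), had 5 and 9 counts with diosmin and 0 and 6 counts in IVS, too few for the test. The ratio of summed counts scaled for depth was 2.54 (95% exact conditional binomial interval 0.917 to 8.06, counting error only), so no difference was detectable at this depth.

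Xirp1, an actin-binding repeat protein known from muscle tendon junctions and from damaged fibres (chromosome 9, 120013755 to 120023598), had 62.1 and 51.2 CPM with diosmin against 23.6 and 62.8 CPM in IVS. The highest and the lowest library were both IVS libraries. The log2 fold change was 0.40 ± 0.44, and it ran from -0.15 without IVS replicate 1 to 1.25 without IVS replicate 2.

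**Figure D3:**
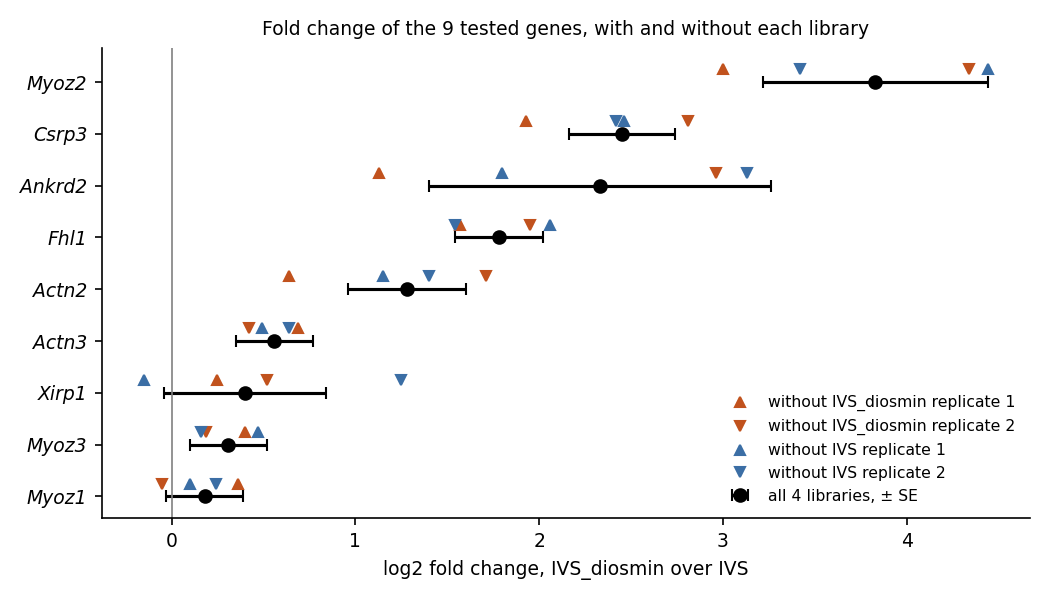
Log2 fold change of IVS_diosmin over IVS for the 9 tested genes, with all 4 libraries (black, ± SE) and with each library left out (triangles above it). Csrp3 stays between 1.93 and 2.81 and Fhl1 between 1.54 and 2.06, whereas Ankrd2 runs from 1.13 to 3.13 and Xirp1 crosses 0.

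The order of the genes by level, in CPM per kilobase of exon, was alike at the top and differed below. Actn3 (2300 ± 287 with diosmin, 1555 ± 117 in IVS) and Myoz1 (741 ± 140 and 656 ± 46.7) led in both groups and were apart from each other and from the rest. Fhl1, Actn2 and Ankrd2 followed in both, each overlapping its neighbour. Myoz2 was 6th with diosmin, at 28.1 ± 17.4, and overlapped Csrp3 at 24.1 ± 10.3, which overlapped Myoz3 at 20.1 ± 1.97. In IVS, Myoz2 was 9th, at 1.94 ± 0.936, below Csrp3 at 4.41 ± 0.0873, Xirp1 at 7.40 ± 4.75 and Myoz3 at 16.3 ± 2.41. Ankrd1 was last in both, at 0.175 ± 0.0586 and 0.0845 ± 0.119 (SD, n = 2 for each value).

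The diosmin libraries differed from each other in opposite directions for these genes. Diosmin replicate 1 had the higher level of Myoz2, Csrp3, Ankrd2, Actn2, Fhl1 and Xirp1, 6 of the 9 tested. Replicate 1 had the lower level of the fast fibre genes Myoz1, Myoz3 and Actn3, at 0.765, 0.871 and 0.838 times replicate 2. All 10 slow fibre markers were higher in replicate 1 as well, by 1.15 to 3.10 times with a median of 2.27. Myh7 had 1259 and 457 CPM with diosmin against 1.72 and 2.19 CPM in IVS, and shares exon bases with other genes, Mhrt among them. The part that slow fibre content plays in the levels of Myoz2, Csrp3, Fhl1 and Ankrd2 was not tested, nor was that of the lower rRNA-like share in the same libraries.

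**Figure D4:**
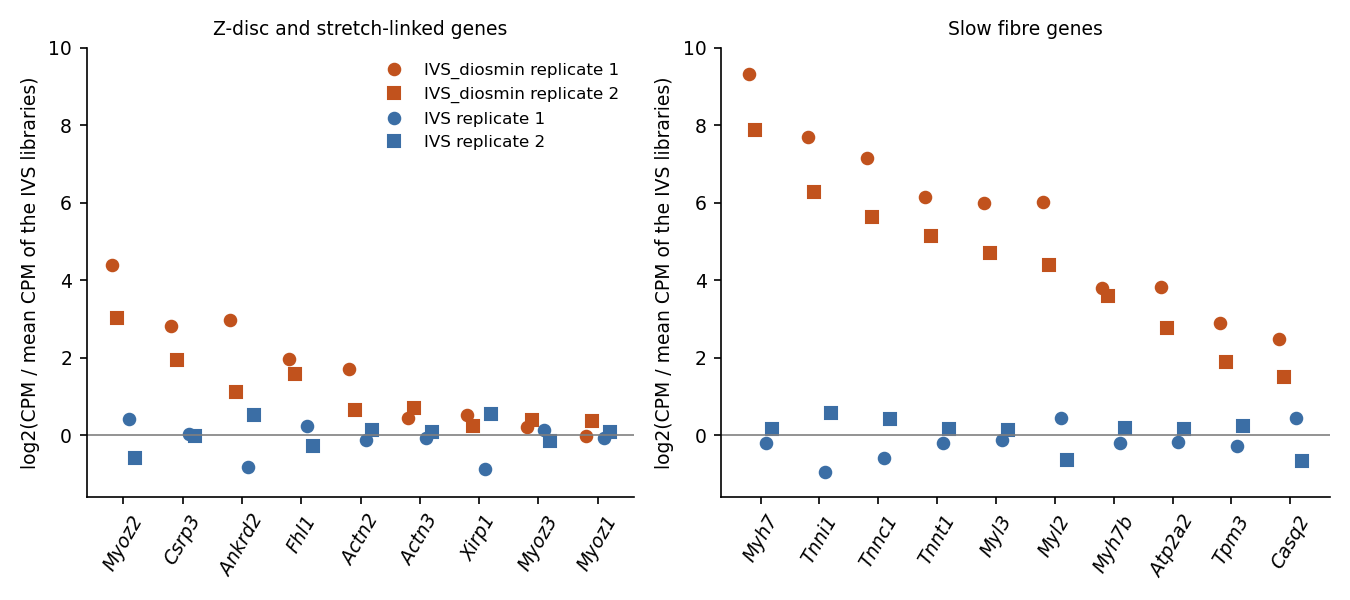
Log2 ratio of the CPM in each library to the mean CPM of the 2 IVS libraries, for the 9 tested genes (left) and the 10 slow fibre markers (right), on 1 scale, with IVS_diosmin in orange and IVS in blue. Myoz2 reaches 4.38 and 3.02 in diosmin replicates 1 and 2 and Myh7 9.33 and 7.87, and every slow fibre marker is higher in diosmin replicate 1 than in replicate 2.

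By the distance between log2 CPM profiles centred over the 4 libraries, the 5 tested genes nearest to Myoz2 were Gm28653 (0.78), Oasl2 (1.00), Atp2a2 (1.02), Zbp1 (1.07) and Myh2 (1.08). Atp2a2, the slow calcium pump, had 194 and 92.7 CPM with diosmin against 12.0 and 15.3 CPM in IVS. Myh2, the type IIa myosin, had 790 and 322 CPM against 133 and 46.7 CPM. Gm28653 had 14.8 and 2.50 CPM with diosmin against 0.343 and 0 CPM in IVS, and Zbp1 5.24 and 1.80 CPM against 0.114 and 0 CPM. At such low levels the 0.5 added before the log2 shrinks the differences, so their distances say less. Oasl2 and Zbp1 are interferon-induced genes, and with 4 libraries a like profile says only that the same libraries were high. Around Myoz1, the gene of smallest fold change, the nearest were Prr33, 4921531C22Rik, Gorasp2, Glipr1 and E2f4, all at a distance of 0.03.

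Among other Z-disc proteins, Synpo2 and Des rose. Of 24 genes listed for that structure, 23 were tested, 2 rose and none fell, with a median log2 fold change of 0.28 beside 0.01 for all tested genes. In 13 of the 23 both diosmin libraries lay above both IVS libraries, beside 23.4% of all tested genes. In 4 both lay below, beside 24.1%. An unadjusted p under 0.05 (edgeR) was found for 8, and the share of all tested genes with such a p was not counted. Synpo2, which bundles actin, had 179 and 201 CPM with diosmin against 94.9 and 88.0 CPM in IVS (log2 1.05 ± 0.20, edgeR adjusted p = 0.0173). Des, the desmin of the filaments that link neighbouring Z-discs, had 3141 and 2945 CPM against 1611 and 1690 CPM (log2 0.88 ± 0.20, edgeR adjusted p = 0.0365). With single libraries left out, the log2 fold change stayed between 0.95 and 1.14 for Synpo2 and between 0.84 and 0.91 for Des. Neither gene passed in those fits of fewer libraries, with edgeR adjusted p from 0.0575 to 0.176 for Synpo2 and from 0.105 to 0.249 for Des. Of 6 smooth muscle markers tested, 1 passed, and that was Des itself. Des shares exon bases with Gm15179 on the opposite strand. As the strand setting of the counting is not known, the effect of that overlap on the Des counts was not tested. Telethonin (Tcap), a titin cap protein and among the most abundant of the list, had 3116 and 2763 CPM with diosmin against 3372 and 3974 CPM in IVS and did not pass (log2 -0.32 ± 0.21, edgeR adjusted p = 0.482).

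Relatives of the described genes and other stretch-linked muscle genes gave no call in the edgeR test. Of 9, 8 were tested, 4 had an unadjusted p under 0.05, and DESeq2 called 1 and limma-voom none. Xirp2, the relative of Xirp1, had 639 and 751 CPM with diosmin against 371 and 463 CPM in IVS (log2 0.74 ± 0.21, edgeR adjusted p = 0.0907), and shares exon bases with Gm13601 on the opposite strand. Smpx, a small muscle protein linked to stretch, had 104 and 150 CPM against 228 and 178 CPM (log2 -0.68 ± 0.23, edgeR adjusted p = 0.151).

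Calsarcins bind calcineurin, and none of the 12 calcineurin and NFAT genes passed the edgeR test (2 had an unadjusted p under 0.05, and neither DESeq2 nor limma-voom called any). The catalytic subunits Ppp3ca and Ppp3cb were at 251 and 269 CPM with diosmin against 290 and 283 CPM, and at 161 and 238 CPM against 203 and 171 CPM (edgeR adjusted p = 0.796 and 0.892). The median log2 fold change of the list was 0.28.

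Of 14 genes of the YAP, TEAD and SRF pathways, which are known to drive Ankrd1 and other stretch genes, 1 fell and none rose. The median log2 fold change over the list was -0.10. Amotl2, a YAP-binding protein and YAP target, had 16.9 and 14.0 CPM with diosmin against 29.0 and 31.7 CPM in IVS (log2 -0.97 ± 0.22, edgeR adjusted p = 0.0352). With single libraries left out, its log2 fold change stayed between -1.11 and -0.86, and it missed the threshold each time (edgeR adjusted p from 0.0654 to 0.213). Tead1 had 111 and 111 CPM against 140 and 83.7 CPM, and Tead3 38.4 and 29.5 CPM against 26.9 and 34.6 CPM (edgeR adjusted p = 0.985 and 0.817).

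In the costamere, the complex that ties Z-discs to the fibre membrane and the matrix, 1 of 16 genes fell and none rose. Values were lower for 12 of them, beside 6699 of all 13533 tested genes. The median over the list was -0.33 on the log2 scale, beside 0.01 for all tested genes. Itgb1, the integrin beta chain, had 44.0 and 41.2 CPM with diosmin against 77.9 and 91.5 CPM in IVS (log2 -0.99 ± 0.20, edgeR adjusted p = 0.0233). Endothelial and stromal cells express it too, and endothelial markers were lower in the same libraries, but the part they play was not tested. Its log2 fold change stayed between -1.10 and -0.88 with single libraries left out. It missed the threshold without IVS_diosmin replicate 1, IVS_diosmin replicate 2 or IVS replicate 2, with edgeR adjusted p from 0.0345 to 0.189 over the 4 fits. The muscle genes Itgb1bp2 (183 and 149 CPM against 211 and 268 CPM) and Sgca (152 and 133 CPM against 186 and 240 CPM) did not pass (edgeR adjusted p = 0.232 and 0.181).

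**Figure D5:**
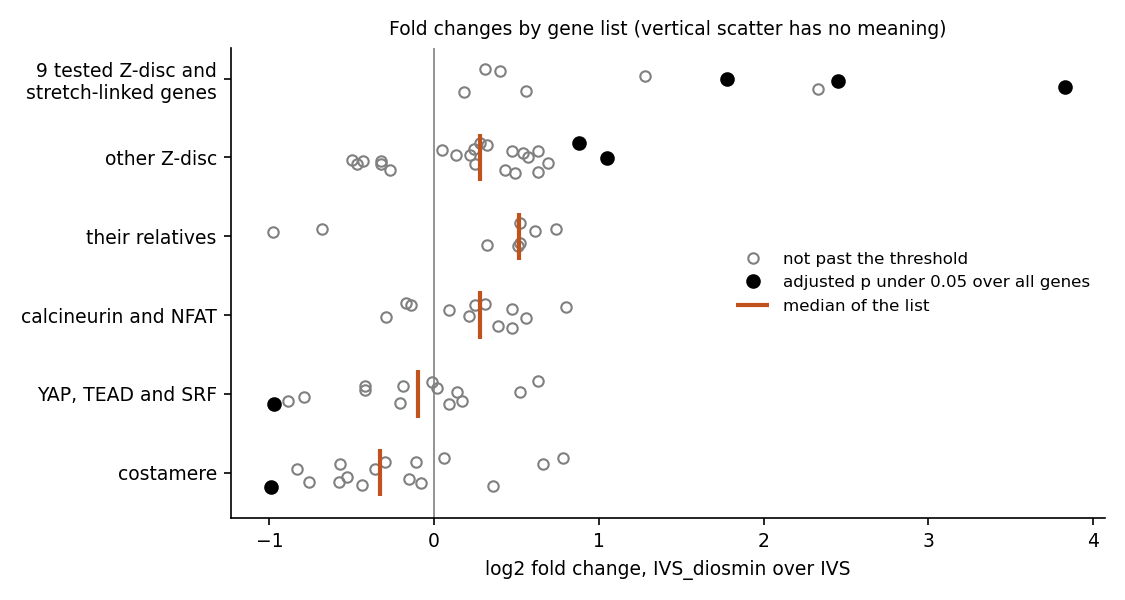
Log2 fold change of IVS_diosmin over IVS for the 9 tested genes and for the other 5 gene lists, 1 point per tested gene, filled where the adjusted p over all genes was under 0.05, with an orange line at the median of each of those 5 lists. Synpo2 (1.05) and Des (0.88) are the filled points of the other Z-disc genes, and Amotl2 (-0.97) and Itgb1 (-0.99) those of the last 2 lists.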

How the data were processed

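Each of 4 libraries came as a table of raw counts per gene, deposited by the authors in the layout of HTSeq. Per the submitters' processing notes, reads went through HISAT2 2.1.0 and HTSeq on mm10. Neither the gene annotation nor the strand setting is given in the sources used here. In each file, 5 summary lines (72.3% to 75.1% of the file's total, with reads aligned to several places at 37.7% to 45.6%) stayed out of library sizes and tests. GENCODE M21, built on mm10, gave symbols, positions and exon lengths (55141 of 55401 genes matched), and RefSeq (GRCm38.p6) gave promoters. Where genes shared a symbol, the one of higher mean count carried it.

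edgeR 4.0.16 (R 4.3.3) filtered genes with filterByExpr, scaled by TMM and fitted a robust quasi-likelihood model of IVS_diosmin over IVS, 2-sided, with Benjamini-Hochberg adjustment over all 13533 genes tested. The standard error is the log2 fold change over the root of F. An exact permutation test of 2 against 2 libraries cannot go below p = 0.333. Simulated counts with known changes were used to check the fit. Alternatives used DESeq2 1.42.0 and limma 3.58.1 (voom), other scalings and filters, a replicate block and leaving out each library; a lone library was assumed to vary like the other group. Replicates differed by more than sampling noise (chi-square over its degrees of freedom of 19.7 with diosmin and 28.6 in IVS). Profiles for the nearest genes used log2(CPM + 0.5). The genes described and all lists were chosen with earlier results of these data known; of each list, the genes past the threshold and the 2 of highest level are named, except 1 gene that is not reported here. Csrp1, Wwtr1, Nfatc2 and the marker genes named singly were chosen after their values were seen.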

Additional observations from a re-analysis of the deposited data

How the results depend on the processing

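Of the 10 genes described, 3 were called, and 2 to 4 under each alternative; Csrp3 was called in all of them. With all libraries scaled by totals alone, the median log2 fold change of all tested genes was -0.11, against 0.01 with TMM. The count over all genes was 400, and 919 with no filter on low counts, 613 with DESeq2, 93 with the replicate block and 38 to 366 with single libraries left out. The labels give replicates only a number and do not say whether same-numbered libraries were paired. Over all tested genes, the deviations of same-numbered libraries had a correlation of 0.0115, a single value that cannot settle it. With the replicate block the calls were 0 in the other Z-disc, YAP, TEAD and SRF, and costamere lists. The 2 calls among other Z-disc genes became 1 with scaling by totals and 0 with any library left out. Relatives of the described genes had 3 calls with no filter (Xirp2 higher, Csrp1 and Smpx lower) and 1 with DESeq2 (Xirp2). Calcineurin and NFAT genes had 1 with no filter (Nfatc2). YAP, TEAD and SRF genes had 2 calls (Amotl2 and Wwtr1) with scaling by totals, with no filter, with DESeq2 and with limma-voom, and 0 without any 1 library. Costamere genes had 3 with no filter, 2 with DESeq2 and 0 to 1 with single libraries left out. The difference in Actn2 share ran from -0.0794 to 3.42 percentage points with single libraries left out, and that in Myoz2 share from 1.50 to 5.47. Directions turned for Myoz1 (-0.05 to 0.36 on the log2 scale) and Xirp1 (-0.15 to 1.25) with a library left out. So they did for Ppp3cb (-0.23 to 0.35, and -0.03 with scaling by totals), Tead1 (-0.34 to 0.40, and 0.03 with limma-voom and with the replicate block) and Tead3 (-0.06 to 0.33), none of which passed the test. The cause was not tested. At 0 to 9 counts per library, the depth limits what can be said of Ankrd1.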

Other observations

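Markers of tissues in which several of these genes are also known gave the following levels. Of 9 cardiac genes, 6 were tested and 1 rose, Actc1, the cardiac actin that skeletal muscle also expresses, at 434 and 394 CPM with diosmin against 177 and 226 CPM in IVS (log2 1.04 ± 0.21, edgeR adjusted p = 0.0241). Myh6 had 15.3 and 6.04 CPM with diosmin against 1.77 and 4.55 CPM in IVS (log2 1.78 ± 0.55, edgeR adjusted p = 0.142). Tnni3 had 0.771 and 1.74 CPM against 0.515 and 0 CPM (log2 2.13 ± 1.07, edgeR adjusted p = 0.346). These were 10 and 25 counts with diosmin and 9 and 0 counts in IVS. Nppa, Tnnt2 and Myl4 overlapped between groups and did not pass (log2 -0.76 ± 1.03, 0.68 ± 0.48 and -0.24 ± 0.44). Of the 6 tested, 2 had an unadjusted p under 0.05, DESeq2 called 2 and limma-voom 1. Nppb and Myl7 had 0 counts in all 4 libraries. The list summed to 461 and 408 CPM with diosmin against 185 and 241 CPM in IVS, and Actc1 made up most of each sum.

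Ankrd1 and Csrp3 are known to be induced in regenerating or denervated muscle. Genes of such muscle summed to 51.0 and 47.1 CPM with diosmin against 53.1 and 54.4 CPM in IVS. Gadd45a and Myod1 had the highest mean levels of that list, so the sums say little of its genes at low levels. Of the 8 tested, 3 had higher and 5 lower values, with log2 fold changes from -1.24 to 2.55. None of the 8 passed the edgeR test (1 had an unadjusted p under 0.05, and DESeq2 and limma-voom called none). Tendon genes summed to 54.6 and 21.6 CPM with diosmin against 26.4 and 28.4 CPM in IVS. Diosmin replicate 1 was high through Thbs4 (29.9 CPM, against 7.15 CPM in replicate 2). Of the 4 tested, 3 had higher and 1 lower values, with log2 fold changes from -1.84 to 0.77. None of these 4 passed the edgeR test (1 had an unadjusted p under 0.05, and DESeq2 and limma-voom called none).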
